A study of Mus musculus with 12 samples.

Results

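Glucocorticoids are steroid hormones, corticosterone in mice, that enter cells and bind the glucocorticoid receptor, a transcription factor encoded by Nr3c1. In the liver the receptor raises genes of glucose production and amino acid breakdown and a set of feedback and stress genes, and the hormone rises and falls over the day. The 8 genes described here are widely used as readouts of that response: Fkbp5, Tsc22d3, Sgk1, Zbtb16, the metallothionein genes Mt1 and Mt2, and the transcription factor genes Cebpd and Cebpb. They were chosen by name, with earlier results of these data known. All 8 of 8 were found among the 22180 genes tested, each through 1 transcript cluster, the set of short probes with which the array reads a gene.

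Liver RNA was taken from 12 adult female C57Bl/6 mice aged 12 to 14 weeks, of which 6 were wild type (WT) and 6 lacked Ppara (Ppara KO). Ppara encodes PPARα, a nuclear receptor for fatty acids that drives fat oxidation in liver. Each animal gave 1 Affymetrix MoGene 2.0 ST array. The sources used here give neither the knockout allele nor the time of collection, the feeding state or a hormone level, and the mice were kept in a 12-hour light and 12-hour dark cycle. In whole liver RNA, fewer cells of a type and less RNA per cell cannot be told apart.

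The values are log2 values after RMA, a method that corrects background, brings the arrays to a common distribution and summarises probes, and the 12 array medians lay between 4.13 and 4.17. The Ppara cluster did not separate the genotypes (7.71 to 8.14 in WT, 7.81 to 8.16 in Ppara KO), and since the part of the gene its probes read is not given, it does not check the labels. All 7 measured hepatocyte markers, Alb among them, were at 8.85 or more in every animal, and 0 were called by limma (1 at an unadjusted p under 0.05). The clock genes, however, stood apart between the genotypes, with 11 of 17 higher and 4 lower, and their mean value ran from 6.56 to 6.79 in WT and from 7.17 to 7.38 in Ppara KO. Adipocyte markers were high in WT 1, 3 and 5 (list mean 5.37, 6.13 and 6.12, against 4.28 to 4.84 in the other 9 animals). Of these markers 3 of 8 were called lower by limma, and 7 were lower at an unadjusted p under 0.05. Kupffer cell and macrophage markers had 1 of 8 called, Cd5l, higher in Ppara KO. The differences of 7 of the 8 were positive, and 3 were higher at an unadjusted p under 0.05 in limma. Marco (0.72, not called) was higher in every Ppara KO liver than in any WT liver. The list means ran from 7.30 to 7.71 in WT and from 7.59 to 8.33 in Ppara KO, the top value in Ppara KO 2. Of 5 cholangiocyte markers 2, Krt19 and Sox9, were called lower. Neutrophil markers lay between 1.92 and 5.93. Of the neutrophil (8), lymphocyte (6), endothelial (8) and stellate cell (8) markers 0 were called by limma, with 0, 0, 3 and 2 at an unadjusted p under 0.05.

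Start-site windows from RefSeq (assembly GRCm38.p6, 250 bases before to 50 after a transcript start) were found for 6 of the 8 genes, 13 windows in all, and none was found for Zbtb16 and Cebpd. The glucocorticoid receptor is known to bind a palindrome with AGAACA as each of its arms. Metallothionein genes are induced through metal response elements, bound by the zinc sensor MTF1, whose core was searched as TGCACNC and TGCGCNC. Both strands were searched, also for the E-box CACGTG, the site of clock activators, and for the cAMP response element TGACGTCA, which had no match in the 13 windows and matches in 1.79% of 32817 windows of all genes. A match describes letters and is no evidence of binding, and a window without a match says nothing about sites elsewhere.

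The full palindrome, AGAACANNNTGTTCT, was present in 3 of the 32817 windows (0.00914%), and 1 of these belonged to Sgk1. It is shown with 24 bases on each side (chr10:21993677-21993739, forward strand), the element in capitals, at positions -189 to -175 from the fifth of the 6 Sgk1 starts. Both arms lie inside it by construction, and another single arm lay upstream in the same window. An E-box lay at -169 to -164 in the Fkbp5 window (chr17:28486289-28486342, reverse strand), again in capitals with 24 bases on each side; 7.15% of windows hold an E-box. The fifth Sgk1 window held an E-box too, at -246 to -241, overlapping the upstream single arm at -242 to -237.
Sgk1: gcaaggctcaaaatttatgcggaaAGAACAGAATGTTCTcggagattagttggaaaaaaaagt
Fkbp5: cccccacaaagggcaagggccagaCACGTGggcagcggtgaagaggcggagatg

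Mt2 and Mt1 are neighbours on chromosome 8, with window starts 6471 bases apart. Their whole windows are printed because these were the 2 genes that varied together most closely, and the capitals mark metal response element cores in either form and on either strand. Mt2 (chr8:94172368-94172667, forward strand) held 4 cores, a number reached by 0.518% of all windows. Mt1 (chr8:94178839-94179138, forward strand) held 3, reached by 1.97%. At least 1 core was found in 25.7% of windows, and neither Mt window held a single glucocorticoid arm, which 19.0% of windows did.
Mt2: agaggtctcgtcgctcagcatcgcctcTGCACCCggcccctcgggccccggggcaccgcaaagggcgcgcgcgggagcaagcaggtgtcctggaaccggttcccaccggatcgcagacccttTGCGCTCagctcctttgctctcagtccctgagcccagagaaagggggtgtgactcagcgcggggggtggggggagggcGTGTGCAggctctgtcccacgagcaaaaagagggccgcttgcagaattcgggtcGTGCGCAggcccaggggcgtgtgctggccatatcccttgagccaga
Mt1: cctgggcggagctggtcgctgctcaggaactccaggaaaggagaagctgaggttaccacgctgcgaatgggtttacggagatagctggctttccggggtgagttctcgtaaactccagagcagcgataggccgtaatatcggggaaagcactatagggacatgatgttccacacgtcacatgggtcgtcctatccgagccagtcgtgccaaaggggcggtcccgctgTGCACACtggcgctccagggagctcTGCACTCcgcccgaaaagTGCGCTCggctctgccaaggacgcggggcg

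**Figure D1:**
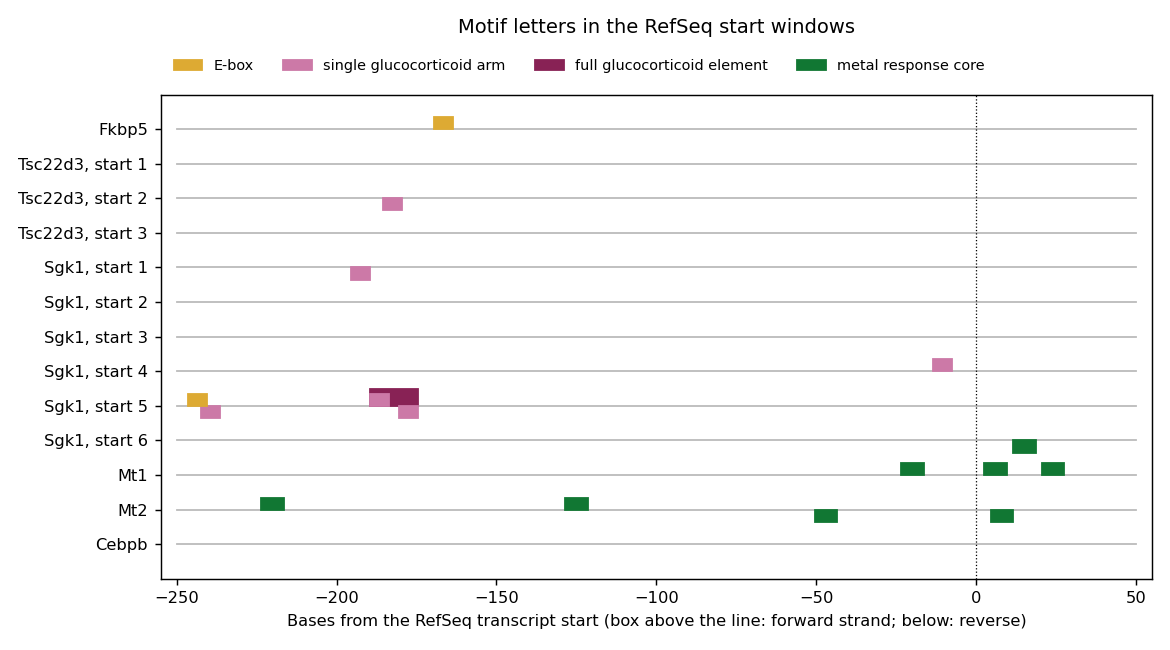
Position of motif letters in the 13 RefSeq start windows of 6 genes, in bases from the transcript start (horizontal axis), with 1 line per window. Boxes above a line are on the forward strand of the gene and boxes below on the reverse strand; the metal response cores fall in the Mt2 and Mt1 windows, with 1 more in an Sgk1 window, and the full glucocorticoid element in the fifth Sgk1 window.

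Comparing Ppara KO with WT asks whether these hormone readouts differ in liver when PPARα is missing. Fkbp5 and Cebpb were higher in Ppara KO, by 1.47-fold and 1.29-fold, and the other 6 were not called. Thus 2 of 8 genes were called higher, where 4.46% of all genes tested were, and 0 of 8 lower by limma (0 also at an unadjusted p under 0.05), where 5.77% were; in both directions together 10.2% of all genes were called by limma at an adjusted p under 0.05. All of the 8 except Cebpd lay above the median level of all genes. In a fit of genes at or above that level alone (11083 beside the members), 2802 were called, 1258 higher and 1544 lower. Shares called at the level of these genes were thus larger than the shares of all genes. For none of the 8 did the values of the genotypes separate without overlap, which they did for 6.51% of all genes. The median difference was 0.17 over the 8 genes and 0.0090 over all genes (log2, Ppara KO minus WT). As the genes were chosen with earlier results known, these counts are a description only.

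Fkbp5 encodes FKBP51, a co-chaperone that lowers the hormone affinity of the glucocorticoid receptor and is itself induced by it, a feedback loop. In WT its log2 value had a lowest value of 5.76, a median of 5.97 and a highest of 6.24, and in Ppara KO 6.14, 6.55 and 7.01. Of the 6 Ppara KO livers 5 lay above every WT liver, and the exception, Ppara KO 6, lay within the WT range. The difference was 0.55 ± 0.12 (log2 ± SE, 95% interval 0.29 to 0.82, n = 6 each; limma adjusted p = 0.00982, exact 2-sided permutation p = 0.00433). Without any single animal the limma adjusted p stayed between 0.00335 and 0.0258. Without WT 1, 3 and 5, the livers high in adipocyte markers, the difference was 0.53 and the call ended (adjusted p = 0.0821, with 3 WT animals left). The clock list moved with the genotypes as given above, and its part in the Fkbp5 difference cannot be told apart from that of the genotype. Ppara KO 2, the highest Fkbp5 value, also had the highest Kupffer marker mean, and without it the difference was 0.46 (adjusted p = 0.0161).

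Cebpb encodes C/EBPβ, a basic leucine zipper factor that responds to hormones and cytokines in hepatocytes. Its log2 value ran from 6.82 through a median of 6.93 to 7.11 in WT, and from 7.10 through 7.27 to 7.61 in Ppara KO. Thus 4 of 6 Ppara KO livers were above all WT livers, while Ppara KO 1 and 6 fell just inside the upper end of the WT range. The difference was 0.37 ± 0.099 (log2 ± SE, 95% interval 0.15 to 0.58, n = 6 each; limma adjusted p = 0.0285, exact 2-sided permutation p = 0.00649). The call ended without any 1 of WT 2, 5 or 6 or Ppara KO 2, 4 or 5 (adjusted p up to 0.0626, difference 0.31 to 0.41 over the 12 omissions) and without WT 1, 3 and 5 together (0.38, adjusted p = 0.132). Ppara KO 2 had the highest Cebpb value as well as the highest Kupffer marker mean (8.33), and without it the difference was 0.31 (limma adjusted p = 0.061). As for Fkbp5, the part of the clock genes cannot be told apart from that of the genotype.

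Cebpd, which encodes the related factor C/EBPδ, an early responder to glucocorticoids and inflammation, was not called (-0.064 ± 0.14, limma adjusted p = 0.855; 0.039 without Ppara KO 5). It ran from 4.10 through 4.34 to 4.54 in WT and from 3.74 through 4.30 to 4.70 in Ppara KO, so the Ppara KO values enclosed those of WT. These values lie close to the array medians, a range in which RMA is known to compress differences.

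Tsc22d3 encodes GILZ, an anti-inflammatory leucine zipper protein induced by glucocorticoids in many cells. Its log2 value was 5.89 at the lowest, 6.41 at the median and 6.63 at the highest in WT, and 6.16, 6.72 and 7.11 in Ppara KO. In Ppara KO 4 of 6 livers were above every WT liver and the other two, Ppara KO 1 and 3, were below the WT mean. The difference of 0.28 ± 0.15 was not called (95% interval -0.047 to 0.61; limma adjusted p = 0.302, exact 2-sided permutation p = 0.143, n = 6 each).

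Sgk1 encodes a serum- and glucocorticoid-regulated kinase that acts on ion transport, and 1 of its 6 start windows, the fifth, holds the full palindrome shown above. It ranged from 6.33 through 6.41 to 6.61 in WT and from 6.42 through 6.66 to 6.92 in Ppara KO, with 3 Ppara KO livers (2, 3 and 4) above all WT livers. The difference was 0.22 ± 0.088 (95% interval 0.033 to 0.41, n = 6 each). The gene taken alone gave an exact 2-sided permutation p of 0.0325, but adjusted over all genes limma gave 0.138, and it was not called.

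Zbtb16 encodes PLZF, a zinc finger transcription factor induced by glucocorticoids. It had the widest spread in Ppara KO, from 6.34 through 7.38 to 8.23, against 6.70 through 7.30 to 7.60 in WT. The Ppara KO livers lay on both sides of the WT range, 3 above it (2, 3 and 5) and 1 below it (4). The mean difference was 0.11 ± 0.27 (95% interval -0.46 to 0.69, limma adjusted p = 0.861), and it was -0.059 without Ppara KO 2.

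Mt1 and Mt2 encode small cysteine-rich proteins that bind zinc and copper, and both rise with metals, glucocorticoids and inflammation. Mt1 ran from 10.24 through 10.29 to 10.84 in WT and from 10.09 through 10.40 to 10.82 in Ppara KO. Mt2 ran from 10.59 through 11.02 to 11.71 in WT and from 10.22 through 10.91 to 11.35 in Ppara KO. In both genes the ranges largely overlapped. The differences were 0.024 ± 0.14 for Mt1 (95% interval -0.28 to 0.33, adjusted p = 0.953) and -0.14 ± 0.20 for Mt2 (95% interval -0.56 to 0.29, adjusted p = 0.753). The sign of the Mt1 difference turned when WT 2, 5 or 6 or Ppara KO 1 or 3 was left out (-0.054 to 0.11 over the 12 omissions), and that of Mt2 without Ppara KO 6 (0.0021).

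**Figure D2:**
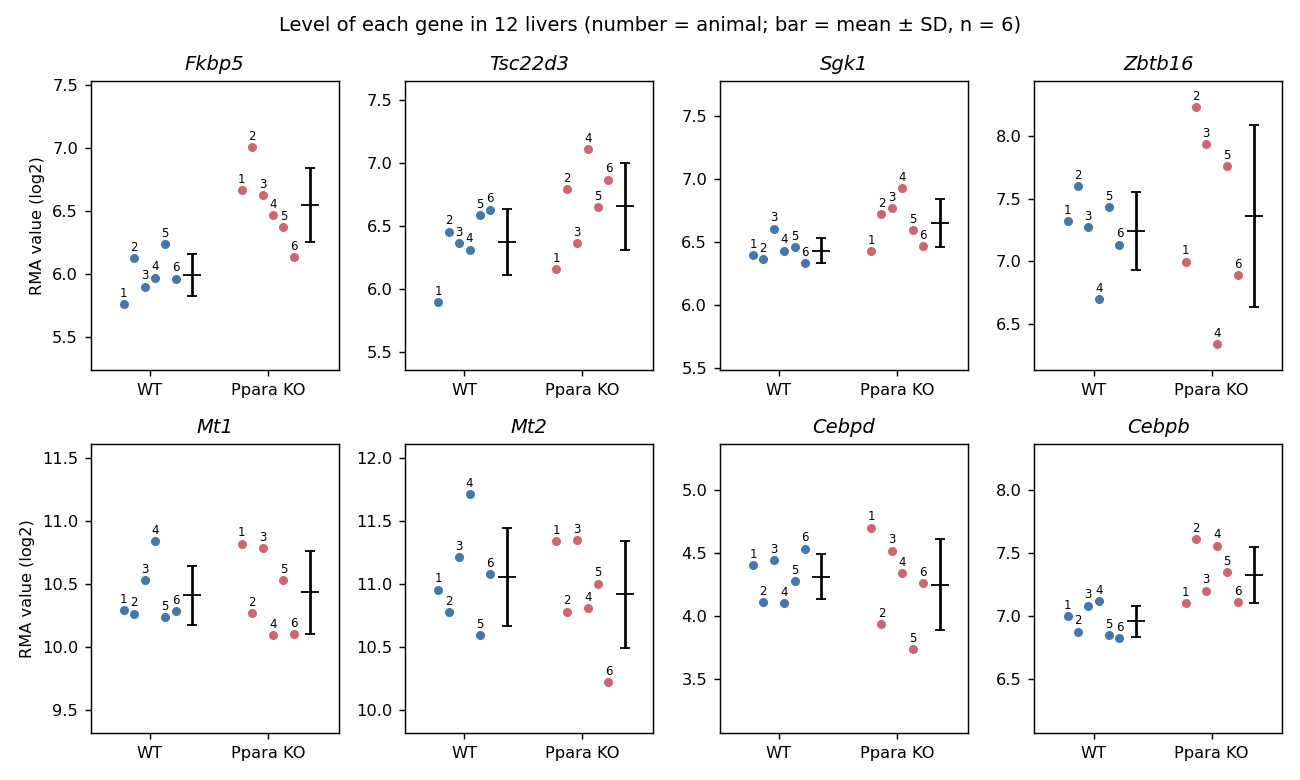
RMA log2 value (vertical axis, the same span of values in every panel) of each of the 8 genes in 6 WT (blue) and 6 Ppara KO (red) livers; numbers are animals and bars are mean ± SD. Fkbp5 has 5 of 6 Ppara KO values above all WT values and Cebpb 4 of 6, and in all 8 genes the ranges of the genotypes overlap.

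No single liver was high in the whole set. Ppara KO 2 had the highest value of its genotype for Fkbp5, Zbtb16 and Cebpb. Ppara KO 4 had the highest for Tsc22d3 and Sgk1 and the lowest for Zbtb16 and Mt1. Ppara KO 1 had the highest for Mt1 and Cebpd and the lowest for Tsc22d3, Sgk1 and Cebpb. Ppara KO 3 had the highest for Mt2 and the highest mean over the 8 genes (7.69), though its Tsc22d3 value was below the WT mean. That mean ran from 7.25 to 7.43 in WT and from 7.26, in Ppara KO 6, to 7.69 in Ppara KO. In WT, animal 4 had the highest Mt1, Mt2 and Cebpb and the lowest Zbtb16 and Cebpd.

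To see how the genes vary among themselves apart from genotype, the genotype mean was removed and each of the 28 pairs was correlated over the 12 animals. Pearson's r ran from -0.68 to 0.90 with a median of 0.07, with 16 pairs positive and 12 negative. Mt1 and Mt2 varied together: r = 0.90 (permutation p = 4.00e-05, adjusted over 28 pairs 0.00112) and rho = 0.91 (permutation p = 2.30e-04, adjusted 0.00644). It was 0.93 within WT and 0.89 within Ppara KO, and 0.83 without WT 4 and Ppara KO 1, the animals farthest from the median of Mt1. Mt1 and Mt2 are close paralogs, and their probes were not checked for matches to both transcripts.

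Tsc22d3 ran against Mt1, with r = -0.68 (permutation p = 0.0314, adjusted 0.360) and rho = -0.83 (permutation p = 0.00271, adjusted 0.0379), so that only the rank measure passed the adjustment. It was -0.96 within Ppara KO and -0.17 within WT, where WT 1 had the lowest Tsc22d3 value (5.89) with Mt1 near the WT median (10.29). Without WT 1 and Ppara KO 1 r was -0.87. Over the 12 omissions of 1 animal r ran from -0.90 to -0.57, with the adjusted permutation p from 0.00154 to 0.84. Only the omission of WT 1, which gave the -0.90, passed the adjustment. Sgk1 and Cebpb had r = 0.71 (permutation p = 0.0385, adjusted 0.360) and rho = 0.72 (permutation p = 0.0308, adjusted 0.271), and r = 0.52 without Ppara KO 1 and 4. Tsc22d3 and Mt2 had r = -0.53 (permutation p = 0.100, adjusted 0.703) and rho = -0.64 (permutation p = 0.0387, adjusted 0.271), and r = -0.63 without WT 1 and Ppara KO 1. Fkbp5 and Tsc22d3, often read together as hormone markers, had r = 0.04 (permutation p = 0.924, adjusted 0.978) and rho = 0.05 (permutation p = 0.893, adjusted 0.942), with 0.76 within WT and -0.27 within Ppara KO, and 0.12 without Ppara KO 2 and 6.

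**Figure D3:**
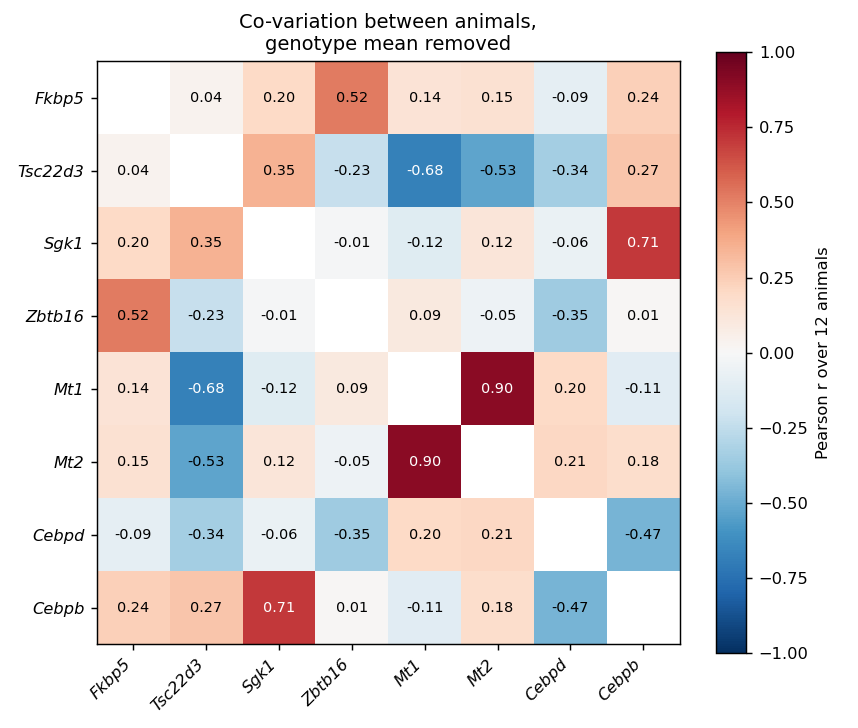
Pearson r between the 8 genes over 12 livers after the genotype mean was removed (colour scale from -1 to 1, value in each cell). Mt1 with Mt2 is at 0.90, Sgk1 with Cebpb at 0.71 and Tsc22d3 with Mt1 at -0.68.

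For each gene the 3 genes with the most similar pattern were looked up among 11083 genes of at least median level, by Pearson r on the same 12 values without genotype means. Being the highest of so many, these r values are a description only. Zbtb16 was followed most closely by Lpin1, which encodes a phosphatidate phosphatase, with r = 0.90 and rho = 0.92, then by Npc2, a lysosomal cholesterol carrier gene (r = 0.89), and Tnfrsf1b, a TNF receptor gene (r = 0.89). Lpin1 itself was higher in Ppara KO (1.06 ± 0.21, adjusted p = 0.00377). For Mt2 it was Cxcl1, a chemokine gene (r = 0.92, rho = 0.97), followed by Mafa (r = 0.92) and Agt, the angiotensinogen gene (r = 0.84), and for Mt1 it was B3galt1 (r = 0.88), Cxcl1 (r = 0.86) and Snora21 (r = 0.86). WT 4, the highest Mt2 value, had Cxcl1 at 6.86, against 4.79 to 5.62 in the other WT livers.

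Fkbp5 was closest to Slc17a2 (r = 0.90, rho = 0.77), a phosphate transporter gene, then F830016B08Rik and Ccnyl1, and Tsc22d3 to the transcription factor gene Tfcp2l1 (r = 0.90, rho = 0.83), then Sh3bp2 and Airn. Sgk1 was closest to Itga7 (r = 0.88, rho = 0.80), an integrin gene, then Rps7 and Mrs2. Cebpd was closest to Commd2 (r = 0.92, rho = 0.85), then Gjd3 and Zfp41, and Cebpb to Mbl1 (r = 0.91, rho = 0.88), a mannose-binding lectin gene, then Scp2 and Krba1. No gene appeared in more than 1 of these lists except Cxcl1. Besides Lpin1, Slc17a2 (0.25, limma adjusted p = 0.0156) and Snora21 (0.62, limma adjusted p = 2.73e-04) were called higher in Ppara KO. Called lower were Mbl1 (-0.65, limma adjusted p = 0.00306), against the rise of Cebpb, and Itga7 (-0.26, limma adjusted p = 0.0379).

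**Figure D4:**
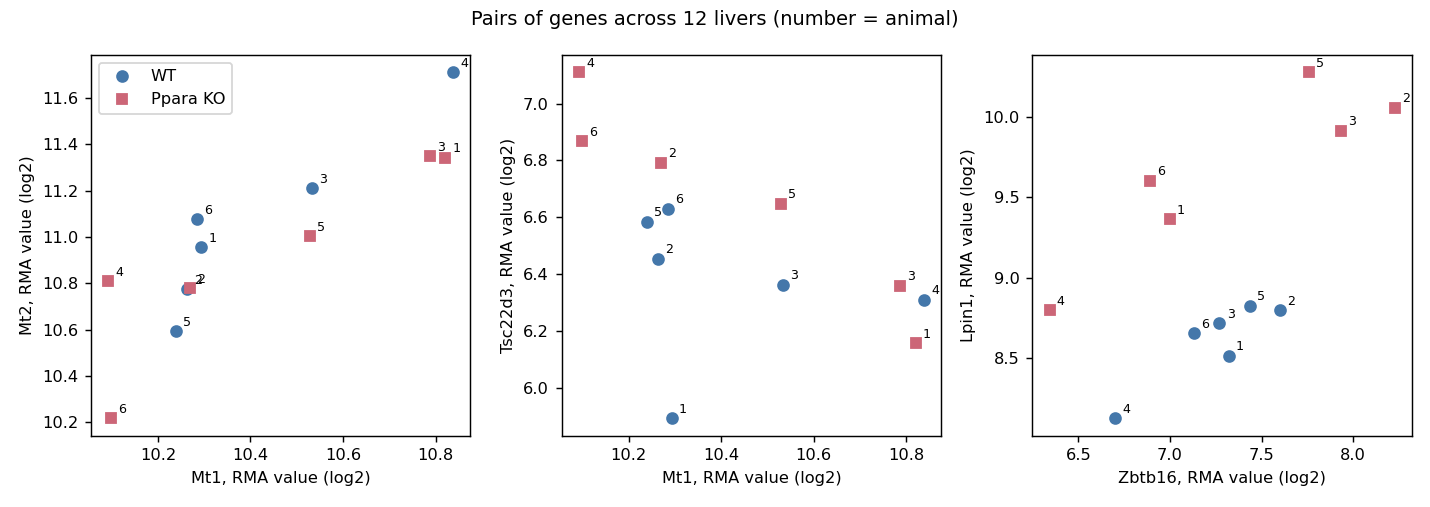
Log2 values of 3 pairs of genes in 6 WT (blue circles) and 6 Ppara KO (red squares) livers, with animal numbers. Mt1 and Mt2 rise together in both genotypes, Tsc22d3 falls with rising Mt1 in Ppara KO while WT 1 is low in Tsc22d3 alone, and Lpin1 follows Zbtb16 at a higher level in Ppara KO.

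Of 14 measured genes for the receptor, its chaperones and the handling of the steroid, 2 rose and 1 fell. For this list and those below, the shares of all genes called were 4.46% higher and 5.77% lower. Among genes at or above the median level the shares were larger, as given above. Nr3c1 itself was not called, with a difference of 0.063 ± 0.067 (7.83 to 8.09 in WT, 7.90 to 8.12 in Ppara KO). Hsd11b1, which regenerates active hormone from its inactive form, rose by 0.25 (SE 0.066, adjusted p = 0.0229), with Ppara KO 5 within the WT range. Serpina6, the gene of corticosteroid-binding globulin, rose by 0.32 (SE 0.082, adjusted p = 0.0206), and its lowest Ppara KO value, 11.40, was above the highest of WT, 11.37. Hsp90aa1, a chaperone gene that holds the receptor ready for hormone, fell by 0.40 (SE 0.081, adjusted p = 0.00491). Among the members not called, Hspa8, a heat shock cognate gene, had 0.093 ± 0.072 and Akr1d1, a steroid reductase gene, 0.20 ± 0.11. The list had a median difference of 0.032. At an unadjusted p under 0.05 in limma, 2 genes were higher and 4 lower. The lower ones beside Hsp90aa1, named after their values were seen, were H6pd (-0.24), Fkbp4 (-0.27) and Stip1 (-0.25), none of them called. The number of rises was 1 without WT 3 or Ppara KO 1, 2 or 6, 3 without Ppara KO 5, and 0 without WT 1, 3 and 5 together; the falls numbered 2 without Ppara KO 4.

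Other genes known to be induced by glucocorticoids moved in both directions: 5 of 27 rose and 4 fell, with a median difference of -0.069. At an unadjusted p under 0.05 in limma, 6 were higher and 7 lower. The list mean ran from 8.45 to 8.53 in WT and from 8.26 to 8.47 in Ppara KO. Without WT 1, 3 and 5 together the falls numbered 2. Per1, a period gene that is driven by the clock as well as the hormone, rose by 1.47 (SE 0.15, adjusted p = 1.23e-05), from 6.02 to 6.96 in WT to 7.52 to 8.14 in Ppara KO. Tdo2, the tryptophan dioxygenase gene, rose by 0.41 (SE 0.067, adjusted p = 0.00117). Igfbp1, an insulin-like growth factor binding protein gene, fell by 1.16 (SE 0.16, adjusted p = 2.99e-04) and Cdkn1a, which encodes the cell cycle inhibitor p21, fell by 1.95 (SE 0.31, adjusted p = 8.28e-04). The remaining calls, named because the counts are small, were the rises of Lpin1, Klf15 (0.56 ± 0.11) and Pck1 (0.30 ± 0.086), a gluconeogenic enzyme gene, and the falls of Angptl4 (-1.11 ± 0.22), known as a PPARα target, and G6pc (-0.61 ± 0.17), the glucose-6-phosphatase gene. Tat, the classical hormone-induced tyrosine aminotransferase gene, was not called (0.11 ± 0.066, adjusted p = 0.345), and neither was Orm1, an acute phase gene (-0.070 ± 0.092). Per1 is also 1 of the 17 clock genes, which as a list differed between the genotypes: Dbp (3.49 ± 0.20), Per3 (3.04 ± 0.16) and Tef (2.21 ± 0.11) rose, Npas2 fell by 3.48 (SE 0.094), and Rora (0.034 ± 0.065) and Cry1 (-0.056 ± 0.16) were not called.

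**Figure D5:**
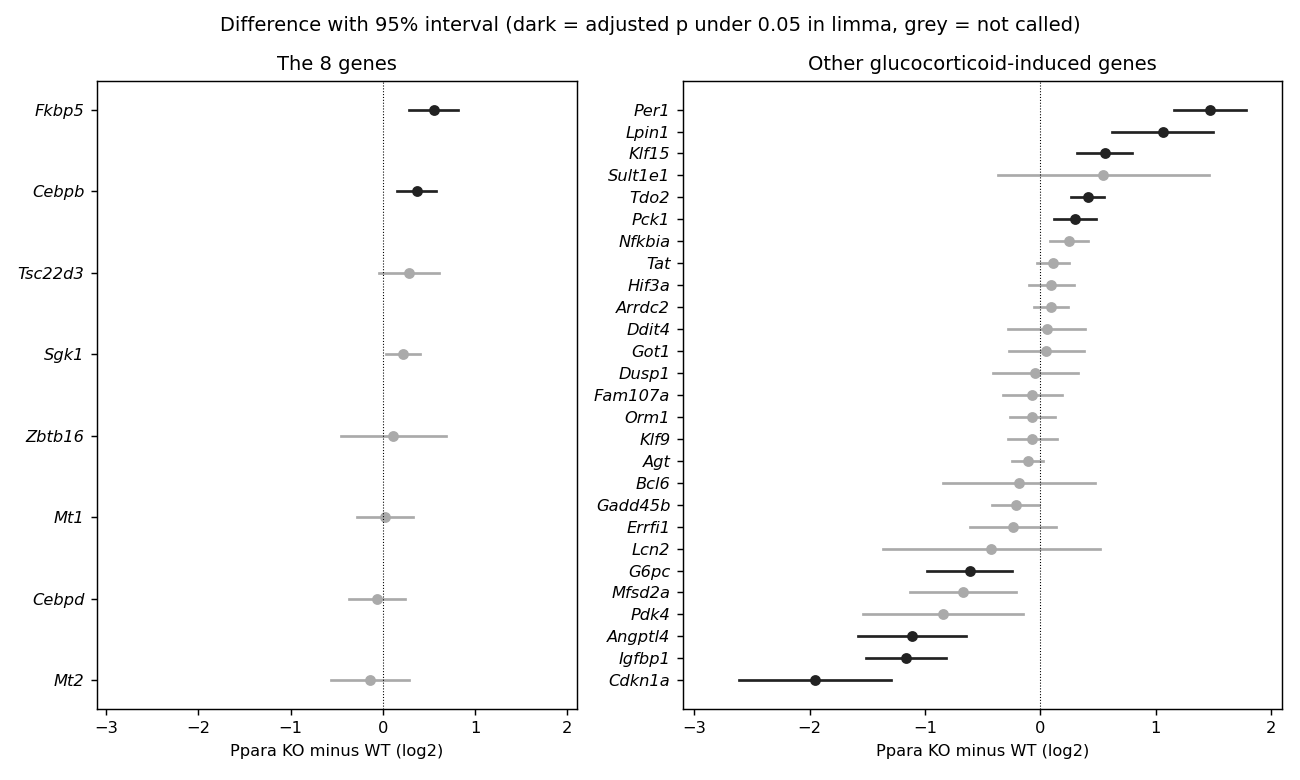
Difference Ppara KO minus WT in log2 units (horizontal axis) with its 95% interval for the 8 genes (left) and 27 other glucocorticoid-induced genes (right); dark points were called by limma at an adjusted p under 0.05 and grey points were not. On the left only Fkbp5 (0.55) and Cebpb (0.37) are called, and on the right 5 genes are called higher and 4 lower.

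Of 5 measured genes of other C/EBP factors and partners 3 rose and 0 fell by limma (0 also at an unadjusted p under 0.05): Cebpa, the main C/EBP gene of hepatocytes (0.38 ± 0.064, adjusted p = 0.00131), Cebpe (0.35 ± 0.069, adjusted p = 0.00408) and Cebpg (0.33 ± 0.074, adjusted p = 0.00960). In each of these 3 the lowest Ppara KO value was above the highest WT value, for Cebpa 9.48 against 9.29, a separation that Cebpb did not show. Atf4 (-0.16 ± 0.10) and Ddit3 (0.14 ± 0.11), which encode stress-response partners, were not called. Among 14 relatives and partners of Fkbp5, Tsc22d3, Sgk1 and Zbtb16, 3 rose by small amounts, Tsc22d2 (0.26 ± 0.063), Sgk3 (0.22 ± 0.063) and Nedd4 (0.21 ± 0.064, adjusted p = 0.04996), and the number of rises in the list was 2 without WT 5 or Ppara KO 5, 1 without any other single animal, and 0 without WT 1, 3 and 5 together. Nedd4l, whose ubiquitin ligase is a substrate of the SGK1 kinase, fell by 0.78 (SE 0.13, adjusted p = 0.00129), from 8.99 to 9.16 in WT to 7.78 to 8.82 in Ppara KO. The list had 2 falls without Ppara KO 4. Fkbp8 (0.081 ± 0.063) and Zbtb20 (0.19 ± 0.069) were not called.

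Zinc handling genes beside the metallothioneins had 0 rises by limma (0 also at an unadjusted p under 0.05) and 2 falls among 11: Slc39a4 (-0.58 ± 0.086, adjusted p = 5.45e-04), a zinc importer gene, and Slc39a1 (-0.25 ± 0.060, adjusted p = 0.0154). In both the genotypes did not overlap, and without WT 1, 3 and 5 together 1 fall was called. The zinc list had a median difference of -0.13, with 3 genes lower at an unadjusted p under 0.05 in limma. Slc39a14 (0.13 ± 0.11), the importer gene induced in inflammation, and Slc39a8 (-0.15 ± 0.090) were not called. Of 18 acute phase genes 1 rose, Il6ra, the interleukin-6 receptor gene (0.36 ± 0.075, adjusted p = 0.00565), and 1 fell, Fgg, a fibrinogen chain gene (-0.25 ± 0.057, adjusted p = 0.00992), while Fgb (-0.14 ± 0.058) and Hpx (0.049 ± 0.076) were not called. The falls numbered 2 without WT 2, and without WT 1, 3 and 5 together there were 0 rises and 0 falls. In the acute phase list 11.1% of genes were called, against 10.2% of all genes. Its median difference was -0.19, with 4 of 18 positive. At an unadjusted p under 0.05 in limma, 1 was higher and 6 were lower. Saa2, a serum amyloid gene chosen after its values were seen, ran from 7.97 to 11.56 in WT and from 8.69 to 11.86 in Ppara KO. The list mean was highest in WT 4 (10.77) among WT and in Ppara KO 3 (10.88) among Ppara KO. WT 4 was also the highest WT liver in Mt1 and Mt2, and Ppara KO 3 the highest Ppara KO liver in Mt2; the part of these genes in the Mt1 and Mt2 values was not tested.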

How the data were processed

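Gene expression was measured on 1 array per animal in 6 WT and 6 Ppara KO livers. The authors deposited log2 values made with RMA and Partek, tools named without a version in the submitters' processing notes. Of 41345 transcript clusters, 23521 had a single gene symbol in the platform annotation; the cluster with the highest mean stood for a gene, which left 22180 genes. Clusters with several symbols were not used here.

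All genes were fitted with limma 3.58.1 in R 4.3.3 (lmFit and eBayes, 1 mean per genotype, 2-sided; the labels do not name a litter or cage, and p-values measure the spread between these animals), with Benjamini-Hochberg adjustment over the 22180 genes and a call at an adjusted p under 0.05. Differences are Ppara KO minus WT ± SE. Single genes were also compared by an exact permutation test over 924 assignments. Correlations used 100000 permutations of animals within genotype (numpy 2.4.6). The fit was tested on simulated data with independent noise for each gene and the same spread in both genotypes. It therefore does not check the fit for correlated genes or unequal spread. Precision is limited by the number of arrays, and the within-group SD had a median of 0.164.

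The members and lists were chosen with earlier results of these data known. Named genes were the 8 members, from each list up to 4 called members of smallest adjusted p and 2 of highest level not called, and the 3 most similar genes per member; other called members were named where a count was 5 or fewer, after their values were seen. Alternatives changed the variance prior, array weights, normalization, centring, the filter, the cluster, the threshold, the replicate block and the animals.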

Additional observations from a re-analysis of the deposited data

Results flagged for a closer look

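In 88 groups of 6 animals, the highest or lowest value was checked for its distance from the others, and 7 groups had a value set apart by a gap beyond Dixon's limit for 6 values, which chance gives for about 1 in 20 groups. None concerned the 8 genes. Tat stood at 11.96 in WT 1 (next value 12.22) and at 12.22 in Ppara KO 1 (next 12.30). Hsd11b1 stood at 9.99 in Ppara KO 5 (next 10.23). The others were clock genes: Npas2 at 7.95 in WT 6 (next 7.70) and at 4.63 in Ppara KO 5 (next 4.23), Dbp at 7.09 in WT 2 (next 6.33), and Cry1 at 6.84 in Ppara KO 2 (next 6.04).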

How the results depend on the processing

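Fkbp5 kept its direction and call in 21 of 22 alternatives and Cebpb in 14 of 22, with no reversal in either. Tsc22d3 and Sgk1 were positive and not called in all 22. Not every alternative could change a direction. The 8 genes have 1 cluster each, and the prior, the filter, the threshold and the replicate block left their differences as they were. Without WT 1, 3 and 5 together, which leaves fewer samples, 1008 genes were called (390 higher, 618 lower) and 0 of the 8. The differences were then 0.53 for Fkbp5, 0.38 for Cebpb, -0.030 for Mt1 and -0.0038 for Slc39a14, and the counts fell to 2 lower glucocorticoid-induced genes, 0 higher machinery genes, 1 lower zinc gene, 0 higher relatives, and 0 higher and 0 lower acute phase genes. At an adjusted p under 0.01, 1070 genes (418 higher, 652 lower) and 1 of the 8 were called, Cebpb (0.37) no longer, with 0 higher machinery genes, 1 lower zinc gene and 0 higher relatives. An intensity trend with a robust prior gave 2 lower machinery and 3 lower acute phase genes, the filter on dim genes 2 lower machinery genes, and centring on the median 1 higher relative. Cebpd gave no value under that filter.

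With 1 animal left out, 1 to 2 of the 8 were called; the counts ran from 1 to 3 (higher) and 1 to 2 (lower) for machinery genes, 1 to 2 in both directions for relatives, and 1 to 2 for lower acute phase genes. Differences ran from 0.31 to 0.41 for Cebpb, -0.059 to 0.32 for Zbtb16, -0.054 to 0.11 for Mt1, -0.23 to 0.0021 for Mt2, -0.15 to 0.039 for Cebpd and -0.22 to 0.0034 for Cry1, and r of Tsc22d3 and Mt1 from -0.90 to -0.57. For the fit with the replicate block 1672 genes and 2 of the 8 were called, with 1 higher machinery gene, 1 lower zinc gene and 1 higher relative. Same-numbered animals showed little common deviation (r from -0.047 to 0.043 over all genes, 1 of 6 WT animals closest to its own number). These values cannot exclude a shared litter or cage, which the labels do not name, and the number was used as a block only in this alternative.

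RMA compresses differences of dim genes, which limits Cebpd most. Hormone level, collection time and feeding state were not analysed here.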

Other observations

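The spread between animals was larger in Ppara KO than in WT for all 8 of the 8 genes. The ratio of the SDs ran from 1.09 for Mt2 to 2.34 for Zbtb16, and was at least 1.5 for 5 of the 8 (Fkbp5, Sgk1, Zbtb16, Cebpd and Cebpb). Over all 22180 genes, 50.7% had the larger SD in Ppara KO, 21.6% had a ratio of at least 1.5, and the median ratio was 1.01. With 6 animals a group each ratio is imprecise, the 8 genes are not independent of each other, and the difference in spread was not tested.

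Besides Sgk1, the windows with the full glucocorticoid palindrome belonged to Acnat2, an acyltransferase gene of fatty acid metabolism, and to the predicted gene Gm35041.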
